A study of Homo sapiens with 30 samples.

Results

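The genes described here encode the core proteins of the spliceosome: the proteins of the small nuclear ribonucleoproteins (snRNPs), SF3A, SF3B, U2AF, the LSm ring and the PRPF proteins. All 44 genes of a list drawn up from these protein families were matched by Ensembl identifier in the raw gene counts of 30 libraries, of 60664 genes in all. By role the list holds 3 U1 snRNP genes, 2 U2 snRNP genes, 7 Sm ring genes, 3 SF3A genes, 6 SF3B genes, 2 U2AF genes, 7 LSm ring genes, 5 U5 snRNP genes, 7 genes of the U4/U6 snRNP and tri-snRNP and 2 genes of the Prp19 complex. The rule uses no measured value, but the list was drawn up with earlier results of these data known.

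The spliceosome assembles anew on each intron. U1 snRNP pairs with the 5′ splice site, U2AF binds the pyrimidine tract and the AG of the 3′ splice site, and U2 snRNP, held by SF3A and SF3B, pairs with the branch site; the U4/U6.U5 tri-snRNP then joins, U1 and U4 leave, and the Prp19 complex stabilises the active spliceosome. Seven-membered rings of Sm and LSm proteins wrap the small nuclear RNAs, and nuclear speckles, bodies that contain SON and SRRM2, store snRNPs and splicing factors.

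RNA was measured by poly(A) RNA-seq in human cell lines, in 10 groups of 3 libraries that the labels describe as separate cultures. K562 (chronic myeloid leukemia) and HCT116 (colorectal carcinoma) wild-type cells received the DNMT1 inhibitor DNMT1i (10 µM) or 0.1% DMSO for 3 days; DNMT1 copies DNA methylation onto newly made strands. Speckle knock-in cells are a K562 single-cell clone whose SON and SRRM2 proteins both carry a dTAG degron, and they received dTAG-13 (500 nM), which directs both proteins to degradation, or 0.1% DMSO for 6 hr. HT-CTCF cells are HCT116 knock-in cells with a HaloTag on CTCF, and 4 groups of them received HaloPROTAC3 with DNMT1i (10 µM), HaloPROTAC3 with DMSO, DNMT1i (10 µM) alone, or 0.1% DMSO alone for 1 day; HaloPROTAC3, which degrades the tagged protein, was also given beforehand. The degron tag is thus present in the controls of both knock-in experiments, and wild-type and knock-in cells were compared in no test.

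The wild-type libraries held 16606855 to 20924381 counts in genes for K562 and 17074791 to 21228534 for HCT116, with 16173008 to 20625817 in speckle cells and 4243092 to 9407430 in HT-CTCF cells. The 44 genes took 0.563% to 1.02% of them. Summed over 8 K562 markers, levels were 413 to 537 CPM (read counts scaled to library size) in the 12 K562-derived libraries and 8.97 to 14.4 CPM in the 18 HCT116-derived libraries, and over 8 HCT116 markers they were 487 to 1050 CPM in the K562-derived and 3070 to 4370 CPM in the HCT116-derived libraries. One library stood apart: the SD over genes of its log2 distance from the other libraries of its group was 0.308 in K562 DMSO replicate 3, against 0.153 to 0.192 in the other 5 wild-type K562 libraries and 0.128 to 0.299 in all other 29, the highest of these among the shallower HT-CTCF libraries. Results that rest on it are given with and without it.

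Levels differed among the 44 genes by far more than between groups. CPM values were scaled by TMM over all 30 libraries, and levels of different genes are compared per kilobase of the reference (MANE Select) transcript. In HCT116 DMSO the highest level was that of SNRPD2, an Sm ring protein, at 489 ± 49.7 CPM per kb (SD, n = 3), ahead of SF3B6, the SF3B subunit that contacts the branch site adenosine, at 236 ± 11.8, SNRPC, the U1 snRNP protein that stabilises pairing with the 5′ splice site, at 145 ± 8.77, and SNRPF, another Sm protein, at 139 ± 11. SNRPC and SNRPF did not differ beyond their spread. SNRPD2 was first of the 44 genes in K562 DMSO as well, at 597 ± 148 CPM per kb, and in speckle DMSO at 582 ± 18.9 and HT-CTCF DMSO at 401 ± 12.8. At the low end LSM8, the LSm protein that marks the nuclear U6 ring, had 3.79 ± 0.183 CPM per kb in HCT116 DMSO, and SNRPD3, an Sm protein, had 11.7 ± 0.321. The value of LSM8 rests on the 12384 bases of its reference transcript. Before division by length it had 47 CPM in HCT116 DMSO, above the 40.6 CPM of SNRPD3. Whether the cells express the full reference length of each gene was not tested gene by gene. For SNRPD1 the exon counts given below bear on it: 2642 of its 4858 reference bases held a small share of its counts. Its level per kb over the reference length is thus low to that extent. PRPF8, the scaffold around the active site, had the highest CPM of the 44 genes in every group before division by length, with 872, 858 and 955 CPM in HCT116 DMSO, and 123 ± 7.18 CPM per kb.

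U2AF1, which recognises the AG of the 3′ splice site, could hardly be measured. It had 3 to 25 counts per library, 389 in all 30, and an almost identical gene on the same chromosome had 1 to 31 counts, 356 in all. Of its 8 exons, 7 occur letter for letter at a second place on chromosome 21, so that reads from them map to both places, and its level of 0.695 ± 0.246 CPM per kb in HCT116 DMSO (SD, n = 3) is not a measure of how much U2AF1 RNA the cells held. It was too low to be tested in HCT116 DNMT1i against DMSO, where 43 of the 44 genes were tested.

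Across the 10 groups, 25 of the 43 genes other than U2AF1 had their lowest mean level in HCT116 DNMT1i. Speckle dTAG-13 and speckle DMSO held the highest mean of 12 and 11 genes, and K562 DNMT1i and K562 DMSO that of 6 and 9. The shares of all genes with their lowest or highest mean in each group were not counted, so these counts do not set the members apart. Without U2AF1, the ratio of the highest to the lowest group mean ran from 1.33 to 5.97 with a median of 2.3, and it was over 2 for 31 of 43 genes. LSM2, an LSm ring protein, spanned the widest range, with 188 CPM in K562 DNMT1i and 31.5 CPM in HCT116 DNMT1i, and LSM3 followed, with 328 CPM in speckle dTAG-13 and 55.8 CPM in HCT116 DNMT1i. SNRPB2, the U2 snRNP protein U2B″, was the most even, between 112 CPM in HT-CTCF DMSO and 84.4 CPM in K562 DMSO. In the heat map of levels by library, the knock-in clones also stand apart from their wild-type lines: PRPF8 averaged 622 CPM in speckle DMSO and 1200 CPM in K562 DMSO, U2AF2 352 and 142 CPM, and SNRNP70 171 CPM in HT-CTCF DMSO and 70.3 CPM in HCT116 DMSO. The experiments were separate, so levels set across them are descriptions.

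**Figure D1:**
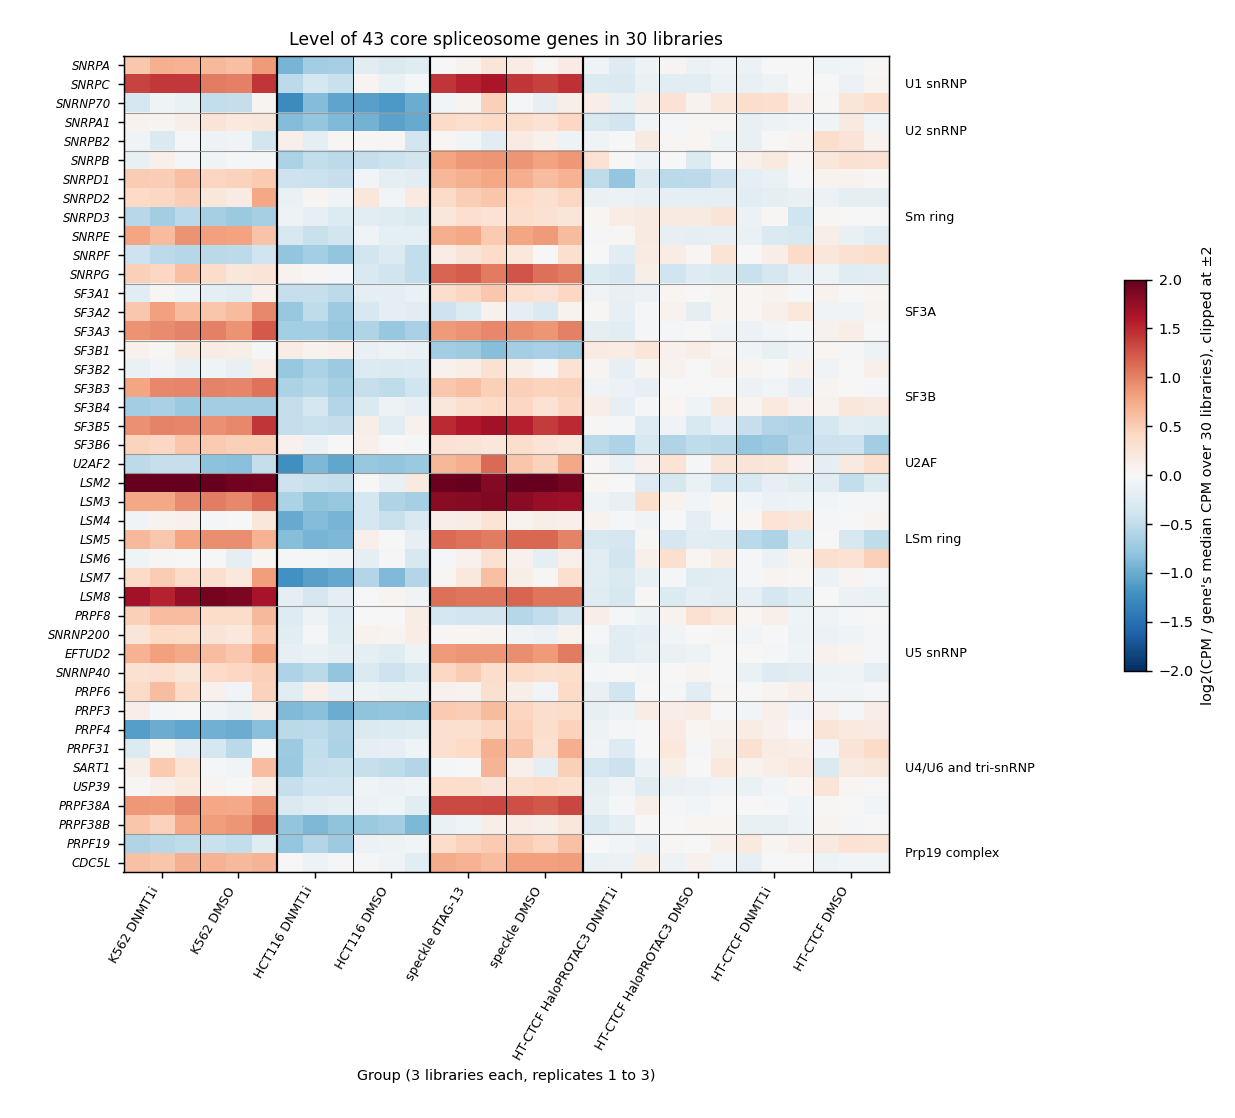
Level of 43 core spliceosome genes (rows, by role, without U2AF1) in the 30 libraries (columns, 3 per group), as log2 of the CPM over the gene's median CPM, with colours clipped at 2 in either direction. LSM2, LSM3 and LSM8 are red in K562-derived libraries, and HCT116 DNMT1i columns hold the lowest group mean of 25 of the 43 genes.

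To ask how the genes respond when maintenance methylation is lost, HCT116 DNMT1i libraries were compared with HCT116 DMSO libraries. After 3 days 2 genes were higher and 23 lower of 43 tested (edgeR, adjusted p below 0.05), that is 4.65% higher and 53.5% lower, against 33.8% higher and 27.9% lower among all 15885 genes tested. The share called in either direction, 58.1%, was close to the 61.6% of all genes, so the members stand out by direction and not by how many were called. The changes were small: the median log2 fold change was −0.21, against 0.02 for all genes, and 3 genes fell by more than 0.5, a size that 15.6% of all genes fell by. DESeq2 called 2 higher and 22 lower. All 23 lower genes had all 3 HCT116 DNMT1i libraries below all 3 HCT116 DMSO libraries, as did 3 genes that were not called. The share of all genes separated in this way was not counted, so this describes the calls and does not set the members apart. In bulk RNA, less RNA per cell and fewer cells that make it cannot be told apart.

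The LSm ring, which binds the 3′ end of U6 RNA, held the largest fall. LSM5 had 46.7, 44.2 and 45.1 CPM in HCT116 DNMT1i, against 90.6, 85 and 75.6 CPM in HCT116 DMSO. Every treated library was far below every control, with a log2 fold change of −0.86 ± 0.08 (standard error; edgeR adjusted p = 2.17e-08). LSM4, whose tail carries arginine-glycine repeats, had 71.6, 78.8 and 75.5 CPM in HCT116 DNMT1i and 113, 105 and 116 CPM in HCT116 DMSO (−0.54 ± 0.08, edgeR adjusted p = 4.52e-06). LSM2 and LSM7 also fell, by 0.44 and 0.40 on the log2 scale, and LSM8 by 0.21, so 5 of the 7 ring genes were lower. LSM3 (−0.17) and LSM6 (0.17) did not pass the test.

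Among U1 snRNP genes SNRPA, which binds a stem-loop of U1 RNA, had 76.6, 90.4 and 92.6 CPM in HCT116 DNMT1i, against 126, 119 and 123 CPM in HCT116 DMSO, without overlap. Its log2 fold change was −0.48 ± 0.08 (edgeR adjusted p = 4.1e-05). SNRPC fell by 0.38 on the log2 scale. SNRNP70, the U1-70K protein that links U1 to SR proteins, did not follow: its 61.1, 81.5 and 71.2 CPM in HCT116 DNMT1i overlapped the 69.7, 66.5 and 74.6 CPM in HCT116 DMSO (0.05 ± 0.09, edgeR adjusted p = 0.679). Neither U2 snRNP gene, SNRPA1 (0.20) nor SNRPB2 (0.11), passed the test.

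The Sm ring was divided. SNRPG was the member with the largest rise, with 91.9, 88.8 and 86.1 CPM in HCT116 DNMT1i and 71.1, 66.3 and 62.2 CPM in HCT116 DMSO (log2 fold change 0.44 ± 0.08, edgeR adjusted p = 4.87e-05). Its ring partners SNRPF, SNRPD1 and SNRPE fell by 0.35, 0.26 and 0.21 on the log2 scale, and SNRPB, SNRPD2 and SNRPD3 did not pass the test (−0.11, −0.15 and 0.10). SNRPGP10 and SNRPGP2, processed copies of SNRPG, were higher too (0.47 ± 0.19 and 0.57 ± 0.20 on the log2 scale, edgeR adjusted p = 0.0396 and 0.0168), and reads of SNRPG and its copies can be assigned to one another, so the value for SNRPG is uncertain to that extent.

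In SF3B, SF3B1, the large subunit that clamps the branch site helix, was the other gene to rise. It had 669, 636 and 647 CPM in HCT116 DNMT1i, against 545, 566 and 550 CPM in HCT116 DMSO (0.26 ± 0.07, edgeR adjusted p = 0.00339). Other SF3B genes went the opposite way: SF3B5 fell by 0.44 on the log2 scale, SF3B2 by 0.40 and SF3B4 by 0.26. SF3B3, which shares its fold with the DNA damage protein DDB1, and SF3B6 did not pass the test (−0.14 and −0.02). In SF3A, SF3A2 and SF3A1 fell by 0.39 and 0.29 on the log2 scale and SF3A3 had −0.01. U2AF2, which binds the pyrimidine tract, fell by 0.26 on the log2 scale.

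Of the U5 genes, PRPF8 had 727, 809 and 720 CPM in HCT116 DNMT1i and 872, 858 and 955 CPM in HCT116 DMSO, low in every treated library but by little (−0.23 ± 0.08, edgeR adjusted p = 0.0164). SNRNP200, the helicase that unwinds U4 from U6, and SNRNP40 fell by 0.23 and 0.29 on the log2 scale, and the GTPase EFTUD2 (0.03) and PRPF6 (0.06), which bridges U5 and U4/U6, did not pass. In the U4/U6 and tri-snRNP group, PRPF31, which clamps U4 RNA and is mutated in retinitis pigmentosa, fell by 0.44 on the log2 scale, USP39 by 0.30 and PRPF4 by 0.26, and the other 4 genes did not pass. PRPF19, the ubiquitin ligase that names its complex, had 90.7, 104 and 94.4 CPM in HCT116 DNMT1i, against 144, 145 and 150 CPM in HCT116 DMSO. That was the second largest fall, −0.58 ± 0.08 (edgeR adjusted p = 1.67e-06), and its partner CDC5L had 0.08. In the plot of fold changes by role, lower genes occur in 9 of the 10 roles.

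**Figure D2:**
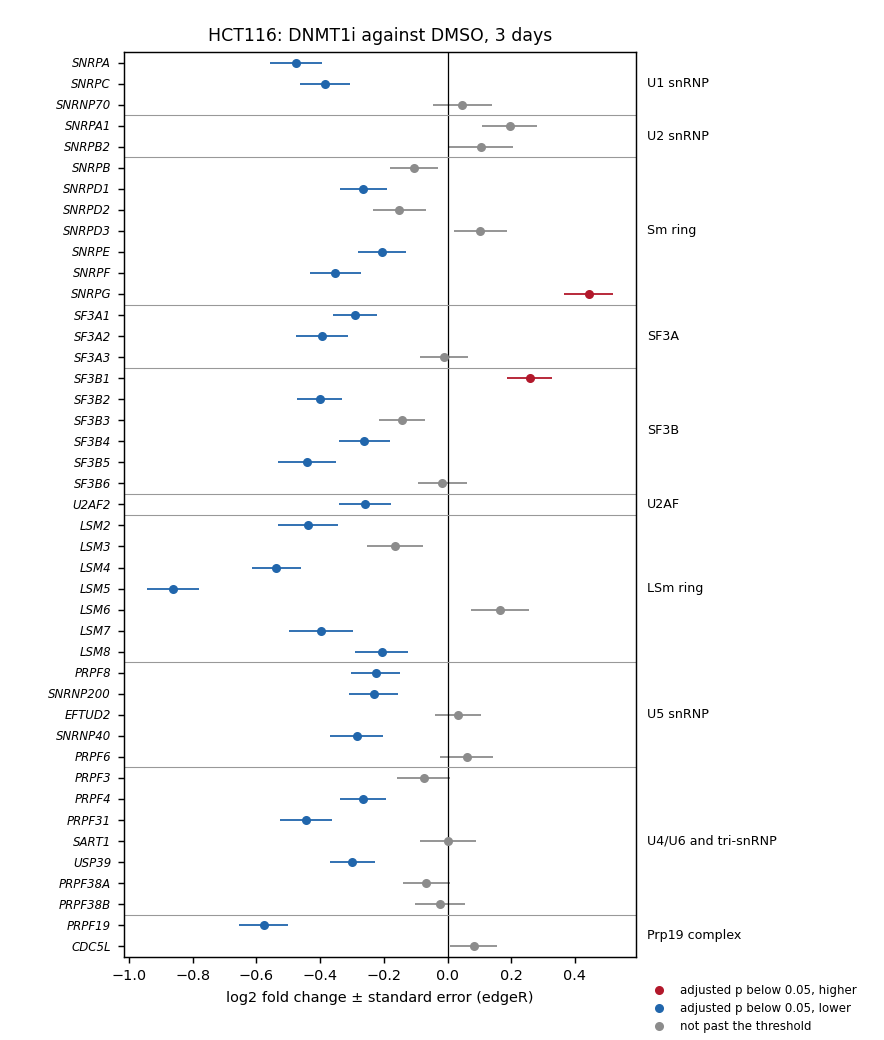
Log2 fold change (edgeR, x axis, bars ± standard error) of HCT116 DNMT1i against HCT116 DMSO for 43 genes grouped by role (y axis). Blue points (23 genes) and red points (2 genes) had an adjusted p below 0.05; LSM5 lies farthest left at −0.86 and SNRPG farthest right at 0.44.

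The split depended on scaling. With library totals in place of TMM, 6 genes were higher (SNRPA1, SNRPD3, SNRPG, SF3B1, LSM6 and CDC5L) and 14 lower, against 39.7% higher and 20.6% lower among all genes, and the median of all genes moved to 0.13. No called gene turned its sign, and 14 lower and 2 higher genes were called by both scalings. Of the 25 calls, 7 were lost in at least 1 of 6 fits that left out 1 library each: LSM8 was kept in 2 fits, PRPF8 in 3, SNRNP200 and SNRPE in 4, and SF3B4, U2AF2 and SNRNP40 in 5. An exon of another gene lies on the opposite strand over 11 of the 44 genes, and no source used here says how strand was treated in the counting. Of these 11 genes 9 were called lower, so most genes with such an overlap are among the 23 lower genes. The other 14 lower genes have no such overlap. Whether reads from the opposite strand enter these values was not tested.

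Because the treatment acts on CpG methylation, the sequence before the start used is shown for the 3 genes that fell most and the 2 that rose, taken from RefSeq (GRCh38.p14), with every CG in capitals. These are the 250 bases before the start used, 5′ to 3′ on the minus strand, of LSM5 (chr7:32490381-32490630), PRPF19 (chr11:60906586-60906835) and LSM4 (chr19:18323077-18323326), which fell most, of SNRPG (chr2:70293459-70293708) and of SF3B1 (chr2:197435029-197435278), which rose. The start used for SNRPG lies 282 bases downstream of its MANE Select start, so its stretch lies within the gene.
LSM5: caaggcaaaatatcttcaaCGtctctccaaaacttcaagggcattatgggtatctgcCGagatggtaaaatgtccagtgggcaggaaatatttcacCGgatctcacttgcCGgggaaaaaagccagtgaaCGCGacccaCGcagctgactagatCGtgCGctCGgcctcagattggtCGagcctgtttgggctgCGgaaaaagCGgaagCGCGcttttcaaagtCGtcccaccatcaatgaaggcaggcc
PRPF19: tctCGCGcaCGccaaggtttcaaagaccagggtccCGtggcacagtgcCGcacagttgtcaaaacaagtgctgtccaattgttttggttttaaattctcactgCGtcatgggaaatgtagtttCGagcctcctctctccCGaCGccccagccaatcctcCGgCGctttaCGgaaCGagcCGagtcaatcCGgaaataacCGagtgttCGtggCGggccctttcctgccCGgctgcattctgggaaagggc
LSM4: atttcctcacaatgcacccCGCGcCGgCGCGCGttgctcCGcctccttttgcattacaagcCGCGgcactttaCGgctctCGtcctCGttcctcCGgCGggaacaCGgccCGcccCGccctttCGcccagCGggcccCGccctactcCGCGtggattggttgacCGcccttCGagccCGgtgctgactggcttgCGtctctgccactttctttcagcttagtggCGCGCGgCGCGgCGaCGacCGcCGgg
SNRPG: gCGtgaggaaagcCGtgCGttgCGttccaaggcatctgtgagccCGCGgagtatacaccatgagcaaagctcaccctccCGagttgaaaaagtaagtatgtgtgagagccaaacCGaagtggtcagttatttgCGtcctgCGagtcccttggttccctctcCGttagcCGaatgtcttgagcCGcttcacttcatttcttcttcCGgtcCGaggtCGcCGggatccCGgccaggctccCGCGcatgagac
SF3B1: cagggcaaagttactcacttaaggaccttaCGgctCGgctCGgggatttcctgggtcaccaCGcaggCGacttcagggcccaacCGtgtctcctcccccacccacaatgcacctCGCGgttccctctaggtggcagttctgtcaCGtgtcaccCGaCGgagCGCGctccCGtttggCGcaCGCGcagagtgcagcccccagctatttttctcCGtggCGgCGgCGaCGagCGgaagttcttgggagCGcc
These stretches hold 16, 19, 35, 20 and 24 CG, so SF3B1, which rose, lies within the range of the genes that fell. The 20 CG of SNRPG do not lie before its MANE Select start. A window of 250 bases before to 50 after the start used was at hand for 40 of the 44 genes, and SNRPD1, SF3B3, LSM6 and PRPF3 had none. For SNRPE, as for SNRPG, the start used lies downstream of the MANE Select start, by 248 bases. The median number of CG per window was 27 over the 40 genes, against 14 over all 35116 windows, and it was 26.5 in the 22 lower genes and 27 in the 17 that were higher or not called. CCGGAAGT, searched on both strands, occurred in 32.5% of the members' windows, against 4.14% of all windows, and was as frequent in lower genes (31.8%) as in the others (35.3%). CCAAT was in 50% of the windows of lower genes and 23.5% of the others (34.6% of all windows), and GGGCGG in 68.2% and 41.2% (45% of all windows). GGGCGG and CCGGAAGT each contain a CG. A match is a description of letters, and methylation was not analysed here.

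Other genes of the pathway, from lists chosen with earlier results of these data known, were mixed in HCT116 DNMT1i against HCT116 DMSO. Beside their counts stand 33.8% higher and 27.9% lower among all genes tested. Prp19-related and catalytic step factors had 0 higher and 10 lower of 26 (11 lower and 0 higher at an unadjusted p below 0.05; DESeq2 0 and 7), led by the helicase DHX35 (−0.60 ± 0.12). Of 20 snRNP assembly and import genes 2 were higher, GEMIN2 of the SMN complex most (0.66 ± 0.10), and 9 lower, GEMIN6 of the same complex most (−0.66 ± 0.11). Factors of U2 recruitment had 4 higher and 3 lower of 16, with SMNDC1 at 0.69 ± 0.08 and DDX42 at −0.38 ± 0.07, and factors of the tri-snRNP and B complex 4 higher and 3 lower of 18, with CD2BP2 at 0.54 ± 0.11 and the cyclophilin PPIH at −0.82 ± 0.09. The exon junction complex had 1 higher (CASC3, 0.25 ± 0.07) and 1 lower (MAGOHB, −0.74 ± 0.10) of 5, and the minor spliceosome 1 higher (CENATAC, 0.72 ± 0.14) and 3 lower (SNRNP48 most, −0.59 ± 0.09) of 9. Paralogs and copies of members had 3 higher and 1 lower of 6 tested.

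The same treatment of K562 cells gave no call. Of 44 genes tested, 0 were higher and 0 lower in K562 DNMT1i than in K562 DMSO (edgeR, and DESeq2 also 0 and 0). By the same adjusted p, 6.47% were higher and 2.38% lower among all 13726 genes. At an unadjusted p below 0.05, not counted over all genes, 2 members were higher and 2 lower. The median log2 fold change was 0.01. PRPF38B, a B complex protein related to PRPF38A, came nearest, with 160, 150 and 186 CPM in K562 DNMT1i and 194, 201 and 228 CPM in K562 DMSO (−0.32 ± 0.11, edgeR adjusted p = 0.0919). SF3B1 (0.02 ± 0.07), PRPF8 (0.11 ± 0.10), SNRNP70 (0.11 ± 0.15) and U2AF1 (−0.28 ± 0.34) had log2 fold changes near or within their standard error.

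That count rested on K562 DMSO replicate 3. Without it, 10 genes were higher and 3 lower, against 13.6% higher and 10.5% lower among all 14249 genes. PRPF6 was then highest, with 186, 219 and 186 CPM in K562 DNMT1i, against 151 and 138 CPM in the remaining K562 DMSO libraries and 196 CPM in the one left out (0.46 ± 0.08, edgeR adjusted p = 0.000948 without it). SNRPC (0.39), SART1 (0.37) and U2AF2 (0.37) came next, then PRPF31 (0.33), SNRNP70 (0.32), SNRPD2 (0.26), PRPF8 (0.23), SNRPG (0.21) and EFTUD2 (0.20). For SNRNP70 the libraries had 117, 139 and 135 CPM in K562 DNMT1i and 105, 106 and 154 CPM in K562 DMSO, the last value from the library that stood apart. LSM5 (−0.24), PRPF38B (−0.24) and LSM8 (−0.22) were lower without it.

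Whether the response differs between the lines was tested directly, as the log2 fold change in K562 minus that in HCT116, in one fit of the 12 wild-type libraries. At an adjusted p below 0.05 the difference was called positive in 13 genes and negative in 1 of 44 (29.5% and 2.27%), against 14.1% and 15.7% of all 17237 genes; whatever the p, it was above 0 in 35 genes and below 0 in 9, with a median of 0.21. The smallest adjusted p was that of LSM5, with a difference of 0.69 ± 0.13 (edgeR adjusted p = 0.000377): it had 132, 123 and 146 CPM in K562 DNMT1i and 160, 160 and 136 CPM in K562 DMSO, which overlapped, beside the wide gap in HCT116. LSM2 had 185, 185 and 194 CPM in K562 DNMT1i and 175, 164 and 162 CPM in K562 DMSO, whereas its HCT116 libraries had 32, 31.6 and 30.9 CPM with DNMT1i and 43, 38.7 and 48.4 CPM with DMSO (difference 0.63 ± 0.12, edgeR adjusted p = 0.000519). It was thus above its controls in K562 and below them in HCT116. Next came SNRPC (0.62 ± 0.15), LSM4 (0.51 ± 0.13), PRPF31 (0.62 ± 0.17), PRPF19 (0.43 ± 0.12), U2AF2 (0.50 ± 0.14) and USP39 (0.37 ± 0.11). SNRPA1, a U2 snRNP protein, was the 1 gene with a negative difference that was called (−0.32 ± 0.11, edgeR adjusted p = 0.0343), and PRPF8 had 0.35 ± 0.13 (edgeR adjusted p = 0.0458). The differences of SF3B1 (−0.23 ± 0.10), SNRNP70 (0.07 ± 0.19) and U2AF1 (0.25 ± 0.52) did not pass the test.

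Without K562 DMSO replicate 3, the difference was called positive in 21 genes and negative in 2, against 17.3% and 18.3% of all genes. The call for SNRPA1 was kept in 4 of 12 fits that left out 1 library each, those for PRPF8 and SF3B2 in 3 and that for SNRPF in 4, whereas the 8 genes of the smallest adjusted p kept theirs in all 12. With library totals as scaling the calls were 9 and 3, against 10.8% and 17.8% of all genes, and with DESeq2 11 and 4. In the plot of both responses, 13 of the 14 genes that differ lie above the line of equal response, and they differ mainly along the HCT116 axis.

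**Figure D3:**
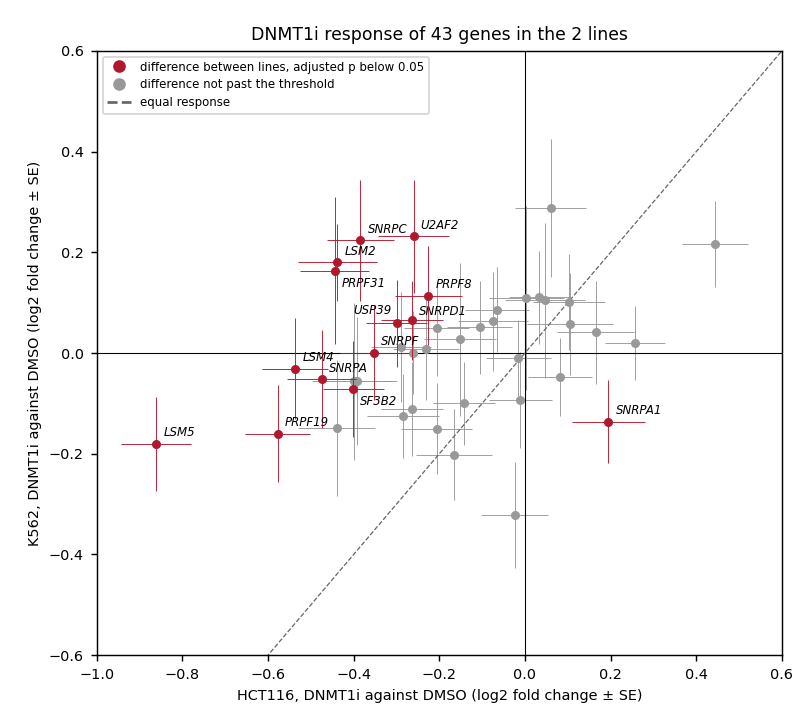
Log2 fold change of DNMT1i against DMSO in K562 (y axis) and in HCT116 (x axis) for 43 genes, with standard errors from the edgeR fits of each line. The 14 genes in red had a difference between lines with an adjusted p below 0.05; 13 lie above the dashed line of equal response, with LSM5 farthest left, and SNRPA1 lies below it.

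The lines also differed without treatment. In K562 DMSO 28 genes were higher and 5 lower than in HCT116 DMSO of 44 tested (63.6% and 11.4%), against 36.9% higher and 39.6% lower among all 17237 genes. In either direction 75% were called, close to the 76.5% of all genes. The median log2 fold change was 0.57, against −0.03 for all genes, and 23 genes were higher and 3 lower by more than 0.5, against 31% and 34.5% of all genes. DESeq2 called 27 higher and 6 lower.

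LSM2 had the largest difference. Its 175, 164 and 162 CPM in K562 DMSO were all far above its 43, 38.7 and 48.4 CPM in HCT116 DMSO (log2 fold change 1.81 ± 0.09, edgeR adjusted p = 1.35e-13). LSM8 had 177, 173 and 148 CPM in K562 DMSO, against 47.2, 49.1 and 44.6 CPM in HCT116 DMSO (1.69 ± 0.09), and 6 of the 7 LSm ring genes were higher in K562. SF3A3, the SF3A subunit that meets the U2 branch helix, had 420, 391 and 487 CPM in K562 DMSO and 138, 124 and 133 CPM in HCT116 DMSO (1.59 ± 0.09), while its partner SF3A1 did not pass the test (−0.06). PRPF38B followed at 1.58 ± 0.10. All 3 U1 genes were higher in K562, among them SNRNP70 at 0.66 ± 0.14.

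PRPF4, which holds PRPF3 on U4/U6, was the furthest lower in K562. It had 57.5, 56.1 and 62.5 CPM in K562 DMSO, against 91.7, 92.7 and 94.1 CPM in HCT116 DMSO (−0.79 ± 0.08, edgeR adjusted p = 2.08e-08). PRPF3 itself was higher (0.64 ± 0.09), so these direct partners differed in opposite directions. SF3B4 (−0.64 ± 0.08), SNRPD3 (−0.56 ± 0.09), PRPF19 (−0.43 ± 0.09) and SNRPF (−0.25 ± 0.09) were the other lower genes. PRPF8 was higher by 0.29 ± 0.09, SF3B1 did not pass (0.08 ± 0.07), and U2AF1 had 0.84 ± 0.35 (edgeR adjusted p = 0.0348), a call that rests on the few counts given above, that DESeq2 did not make and that 8 of 12 fits without 1 library kept. Without K562 DMSO replicate 3 the counts were 27 higher and 8 lower, and the median was 0.45. The shares of all genes in that fit were not counted, so whether this shift follows that of all genes is not known. Of the 28 genes higher in K562 DMSO, 13 were among those lower in HCT116 DNMT1i, 1 among those higher there and 13 were not called there; both comparisons share the HCT116 DMSO libraries. In the plot of differences between the lines, the LSm ring, U1 and U5 groups hold 6, 3 and 3 higher genes and none lower.

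Among the other lists, 16 higher and 3 lower of 26 Prp19-related and catalytic step factors and 12 higher and 3 lower of 20 assembly and import genes differed in K562 DMSO against HCT116 DMSO, a split like that of the members. The exon junction complex had 2 higher and 3 lower of 5, the minor spliceosome 5 higher and 2 lower of 9, and U2 recruitment (of 16) and tri-snRNP factors (of 18) had 8 higher and 5 lower each. Paralogs and copies of members had 2 higher and 1 lower of 7 tested. Beside these counts stand 36.9% higher and 39.6% lower among all genes tested.

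**Figure D4:**
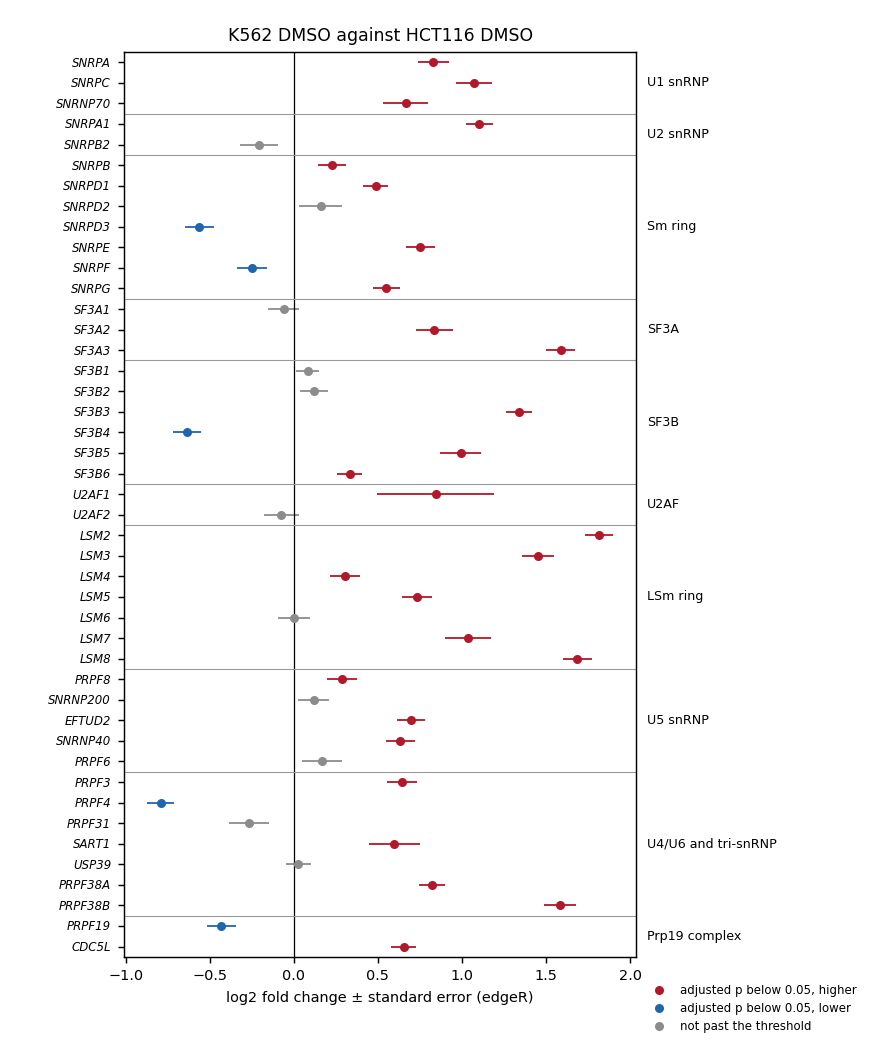
Log2 fold change (edgeR, x axis, bars ± standard error) of K562 DMSO against HCT116 DMSO for the 44 genes grouped by role (y axis). Red points (28 genes) were higher and blue points (5 genes) lower in K562 DMSO at an adjusted p below 0.05; LSM2 lies farthest right at 1.81 and PRPF4 farthest left at −0.79.

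Depletion of the speckle proteins asked whether the genes change within hours once SON and SRRM2 are removed. The tagged proteins were not measured here, and the RNA of the targeted genes, which the degron does not remove, was higher for SRRM2 (0.41 ± 0.07, edgeR adjusted p = 0.00864) and did not pass the test for SON (0.15 ± 0.05). Of 44 genes, 0 were higher and 0 lower in speckle dTAG-13 than in speckle DMSO (edgeR, and DESeq2 also 0 and 0). By the same adjusted p, 1.57% were higher and 3.09% lower among all 14104 genes. At an unadjusted p below 0.05, not counted over all genes, 0 members were higher and 2 lower. The median log2 fold change was −0.03. Pairing by replicate number was inferred for these libraries and is not certain. In each of the 3 pairs, treated and control library deviated together from their group means, with correlations of 0.145, 0.331 and 0.641. The blocked results below rest on this inference.

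With the replicate number as a block, 1 gene was higher and 4 lower, against 8.33% higher and 13.4% lower among all genes. U2AF2 had 365, 383 and 507 CPM in speckle dTAG-13 replicates 1, 2 and 3, against 340, 318 and 397 CPM in speckle DMSO replicates 1, 2 and 3. It was higher in each pair although the groups overlapped (blocked log2 fold change 0.20 ± 0.05, edgeR adjusted p = 0.00307; 0.395 without the block). PRPF38B had 98.5, 102 and 118 CPM in speckle dTAG-13 and 120, 118 and 127 CPM in speckle DMSO, lower in each pair (−0.24 ± 0.05 with the block, edgeR adjusted p = 0.00118; 0.159 without it). CDC5L, with 224, 216 and 206 CPM in speckle dTAG-13 and 236, 236 and 239 CPM in speckle DMSO, had −0.18 ± 0.05 (edgeR adjusted p = 0.0056 with the block, 0.102 without it). SNRPB2 (−0.17 ± 0.05, edgeR adjusted p = 0.0193) and SF3B1 (−0.12 ± 0.05, edgeR adjusted p = 0.0499) were the other genes lower with the block only. PRPF8 (0.07 ± 0.06), SNRNP70 (0.16 ± 0.14) and U2AF1 (0.04 ± 0.32) passed in neither fit.

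The HT-CTCF libraries tested DNMT1i for 1 day with CTCF present or degraded, and degradation itself. CTCF RNA, which the degrader does not remove, was higher with HaloPROTAC3 (0.73 ± 0.07 in DMSO and 0.67 ± 0.07 in DNMT1i). These libraries had the lowest counts of the series, and the contrasts share libraries with each other. Without HaloPROTAC3, 0 of 44 genes were higher and 0 lower in DNMT1i than in DMSO (edgeR, and DESeq2 also 0 and 0). By the same adjusted p, 1.98% were higher and 0.504% lower among all 12690 genes. At an unadjusted p below 0.05, not counted over all genes, 1 member was higher and 4 lower. LSM5, the gene with the largest fall in wild-type HCT116, had 58, 55 and 69.8 CPM in HT-CTCF DNMT1i and 83.5, 67.4 and 59.5 CPM in HT-CTCF DMSO, which overlapped (−0.20 ± 0.11, edgeR adjusted p = 0.395). With HaloPROTAC3, 0 were higher and 1 was lower, against 2.86% and 2.55%: SART1, a tri-snRNP protein, had 56.8, 53.8 and 67.1 CPM in HaloPROTAC3 DNMT1i and 79.2, 72.7 and 84.2 CPM in HaloPROTAC3 DMSO (−0.39 ± 0.10, edgeR adjusted p = 0.0216; kept in 8 of 12 fits without 1 library). The exposure was 1 day here and 3 days in wild-type cells, and they were not compared.

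HaloPROTAC3 itself moved a few genes. In DMSO, 1 was higher and 4 lower of 44 (2.27% and 9.09%), against 10.1% higher and 7.28% lower among all genes, so the shares were not above background except slightly among lower genes. SNRPD1, an Sm protein, fell most, with 104, 105 and 113 CPM in HaloPROTAC3 DMSO, against 159, 158 and 154 CPM in HT-CTCF DMSO (−0.56 ± 0.09, edgeR adjusted p = 1.06e-05). SNRPB, the Sm protein with a proline-rich tail, had 98.9, 81.2 and 97.3 CPM in HaloPROTAC3 DMSO, all below the 115, 121 and 120 CPM in HT-CTCF DMSO (−0.38 ± 0.09, edgeR adjusted p = 0.00298). SNRPB2 (−0.25 ± 0.09) and PRPF19 (−0.21 ± 0.07) were lower and PRPF8 (0.22 ± 0.08) was higher, and these 3 calls were lost in at least 5 of 12 fits without 1 library.

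With DNMT1i present, 4 genes were higher and 5 lower (9.09% and 11.4%), against 12.2% higher and 10.1% lower among all genes, which is close to background. SNRPD1 was lower again, with 106, 88.7 and 124 CPM in HaloPROTAC3 DNMT1i and 134, 138 and 148 CPM in HT-CTCF DNMT1i (−0.40 ± 0.09, edgeR adjusted p = 0.00113). It was thus the 1 gene called in both HaloPROTAC3 comparisons, and both calls were kept in 12 of 12 fits. The comparisons have no library in common, but they come from the same fit and share its estimate of the spread. The share of all genes called in both was not counted. SART1 had the largest fall (−0.43 ± 0.11), then PRPF31 (−0.31 ± 0.10), SNRNP70 (−0.24 ± 0.09) and PRPF6 (−0.23 ± 0.08). SF3B5, a small SF3B subunit, rose most, with 68, 65.5 and 56.1 CPM in HaloPROTAC3 DNMT1i, against 48.3, 44.4 and 43.7 CPM in HT-CTCF DNMT1i (0.46 ± 0.10, edgeR adjusted p = 0.000734). SNRPE (0.30 ± 0.09), SF3B1 (0.27 ± 0.07) and SNRPD3 (0.27 ± 0.10) rose as well. Scaling mattered: with library totals 0 genes were higher and 7 lower in DMSO (7.23% and 11.9% of all genes), and 2 higher and 19 lower in DNMT1i (7.41% and 17.7% of all genes), as the median of all genes moved to −0.07 and −0.10.

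Whether the DNMT1i response depended on HaloPROTAC3 was tested by the interaction. It was called in 0 of 44 genes in either direction (edgeR, and DESeq2 also 0 and 0). By the same adjusted p it was called positive in 0.0552% and negative in 0.213% of all genes. At an unadjusted p below 0.05, not counted over all genes, it was positive in 6 members and negative in 2. SART1 had the smallest adjusted p (−0.47 ± 0.15, edgeR adjusted p = 0.138), so its call with HaloPROTAC3 only is not shown to differ from the comparison without it. PRPF8 had −0.25 ± 0.11, SF3B1 0.16 ± 0.09, SNRNP70 −0.22 ± 0.12 and U2AF1 −0.31 ± 0.60, none past the test.

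**Figure D5:**
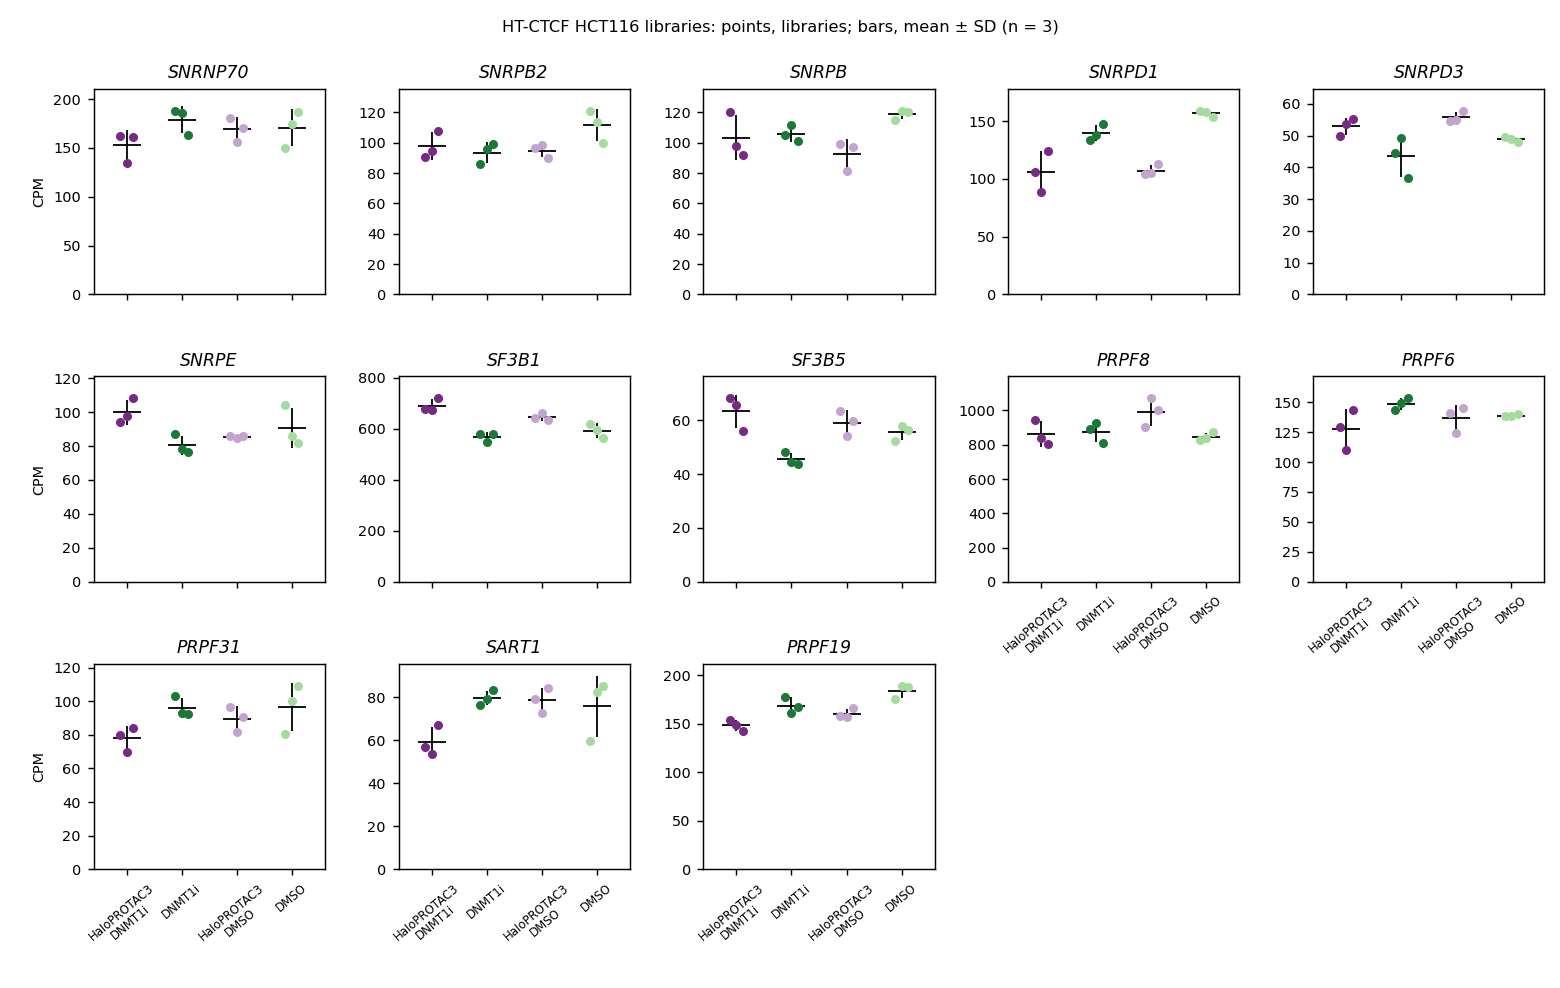
CPM (y axis, from 0) in the 12 HT-CTCF libraries for the 13 genes called in at least 1 HT-CTCF comparison, by group (x axis: HaloPROTAC3 with DNMT1i, DNMT1i, HaloPROTAC3 with DMSO, DMSO); points are libraries and bars mean ± SD of 3. SNRPD1 is lower in both HaloPROTAC3 groups, and in SF3B5 the HaloPROTAC3 DNMT1i libraries lie above the DNMT1i libraries.

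Exon bins, the non-overlapping pieces into which the exons of all transcripts of a gene were cut, show whether the make-up of these transcripts changed. Usage of a bin is its log2 fold change relative to the rest of its gene. Of the 44 genes, 42 had bins that could be tested, 884 bins in K562, 851 in HCT116 and 884 in speckle cells. No bin was called in K562 DNMT1i against DMSO (0 by edgeR and 0 by limma voom, 23 at an unadjusted p below 0.05), against 0.0492% of all bins. In HCT116 6 of the 851 bins were called, 1 in each of 6 genes (48 at an unadjusted p below 0.05, and 7 by limma voom). That share did not exceed the 0.846% of all bins. In speckle cells 0 bins were called (38 at an unadjusted p below 0.05, and 1 by limma voom), against 0.132% of all bins. With the replicate block 7 of the 884 bins, in 5 genes, were called, close to the 0.724% of all bins. Unadjusted counts were not made over all bins. The bins described below are thus single cases and do not set the members apart.

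The firmest of the HCT116 bins lies in SNRPD1 (hg38 chr18:21630486-21633127, plus strand), 2642 bases of its 3′ untranslated region. It had 21, 35 and 19 counts in HCT116 DNMT1i, against 71, 80 and 58 counts in HCT116 DMSO, and its share of the gene's bin counts was 0.473%, 0.615% and 0.405%, against 1.38%, 1.55% and 1.18%. Relative usage fell by 1.44 on the log2 scale (edgeR adjusted p = 5.04e-06, at most 0.00169 without any 1 library). In K562 the same bin had −0.17 (edgeR adjusted p = 1). The bins called in PRPF8 (1.51, at chr17:1650629-1650630), SNRPA1 (1.51), SNRPD2 (0.64) and SNRPE (0.60) are 1 to 4 bases wide and lie in 3′ untranslated regions, so each counts reads over a few bases. The count of called bins ran from 1 without HCT116 DNMT1i replicate 1 to 10 without HCT116 DNMT1i replicate 2, and was 2 without HCT116 DMSO replicate 3.

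The remaining bin lies in SF3B1 (hg38 chr2:197420181-197420427, minus strand), 247 bases that follow directly on exon 4 of 25 and are intronic in the reference transcript. It had 39, 31 and 31 counts in HCT116 DNMT1i, against 4, 11 and 13 counts in HCT116 DMSO, so all treated libraries were higher. Its relative usage rose by 1.34 on the log2 scale (edgeR adjusted p = 0.00831, up to 0.299 without 1 library), and it held 0.154%, 0.101% and 0.116% of the gene's bin counts, against 0.0222%, 0.052% and 0.0676%. The end of exon 4 and the start of the bin are shown because the bin begins at this 5′ splice site (chr2:197420408-197420437, minus strand, 10 exon and 20 intron bases), with the GT of the splice site in capitals.
SF3B1 exon 4 end: tttgcagatgGTaattctttcccacttttc
In speckle cells it had 17, 14 and 13 counts in speckle dTAG-13 and 20, 9 and 10 counts in speckle DMSO, which overlapped.

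In the speckle cells the block brought out bins in SNRPD2, PRPF8, SF3B3, LSM4 and LSM5. The LSM4 bin (hg38 chr19:18309291-18309677, minus strand), 387 bases that are intronic in the reference transcript, had 27, 40 and 38 counts in speckle dTAG-13, against 10, 16 and 11 counts in speckle DMSO, all higher (edgeR adjusted p = 0.00797 with the block, 0.196 without it). A pair of adjacent bins at the end of SF3B3 (hg38 chr16:70576349-70577668, plus strand) had 49, 49 and 51 counts in speckle dTAG-13 and 27, 18 and 26 counts in speckle DMSO in its upstream part, again without overlap (edgeR adjusted p = 0.0352 with the block, 0.404 without it). Bins at the 3′ ends of SNRPD2 and PRPF8 were lower with the block. So was a bin of LSM5 in its 3′ untranslated region, 1467 bases from the end of the reference transcript. Over all 42 genes, the bin nearest the 3′ end had a median log2 usage of −0.14 in speckle dTAG-13 against DMSO and was above 0 in 10, beside −0.11 and 25.5% above 0 among all 10554 genes, so the members followed the other genes in this.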

How the data were processed

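Per the methods and labels, the authors prepared poly(A) libraries with unique molecular identifiers, extracted these with UMI-tools 1.1.1, trimmed reads with cutadapt 2.7, aligned them with STAR 2.6.0 to hg38 with the Ensembl annotation, removed duplicates and counted reads per gene with HTSeq; exon bin counts were made for DEXSeq, by a counter not given in the sources used here, and how strand was set is not stated. The raw counts of genes and exon bins were used as the authors deposited them. Reads that no gene took (17.1% to 23.6% of a library's counts) were left out. The authors' own comparison tables, made with DESeq2 1.28 in R 4.0.2 for genes and with DEXSeq for exon bins, hold fold changes and p-values and were not used, nor were 18 per-sample columns in them; only bin coordinates were read, from a DEXSeq table.

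The test was the quasi-likelihood one of edgeR 4.0.16 in R 4.3.3, with TMM scaling and filterByExpr, over all genes of the libraries compared, with Benjamini-Hochberg adjustment and an adjusted p below 0.05; standard errors were obtained by dividing the absolute log2 change by the root of its F value. DESeq2 1.42.0 and limma 3.58.1 were alternatives, as were library totals, no filter, the replicate number as a block, and leaving out each library. Exon bins were tested with diffSpliceDGE. Tests were checked on simulated data. Figures used Python 3.11.15 with matplotlib 3.10.9. Of the 60664 genes, 60463 (99.7%) matched GENCODE. No 2 libraries of a group agreed within sampling noise. Replicate numbers were taken to pair the speckle libraries, by the correlation of their deviations (all 3 pairs over 0.1). Between K562 DNMT1i and HCT116 DNMT1i the correlations, in the fit of the wild-type libraries, were 0.14, 0.4 and 0.14, also all over 0.1. The reason was not tested, and the main tests between the lines used no block. In every other pair of groups at least 1 correlation was below 0.1, and there the numbers were taken only as names of samples. Promoter sequences are from RefSeq (GRCh38.p14).

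The 44 genes, the other lists and the alternatives were chosen with earlier results of these data known. Named in each comparison were up to 4 called members in each direction with the largest changes, in the difference and interaction up to 8 with the smallest adjusted p, and always SF3B1, PRPF8, SNRNP70 and U2AF1; members named beyond these were chosen after their values were seen. Library depth sets the precision of these values, and tests measure the spread between cultures.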

Additional observations from a re-analysis of the deposited data

Results flagged for a closer look

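The response to DNMT1i differed between the cell lines in 14 genes, by the tested difference of the K562 and HCT116 log2 fold changes in edgeR (adjusted p below 0.05). The difference, K562 minus HCT116, was 0.689 for LSM5, 0.625 for LSM2, 0.616 for SNRPC, 0.514 for LSM4, 0.616 for PRPF31, 0.425 for PRPF19, 0.5 for U2AF2 and 0.366 for USP39, and these calls were kept in all 12 fits that left out 1 library each. It was 0.432 for SNRPA, whose call was kept in 11 of the 12 fits, and 0.337 for SNRPD1, kept in 8. It was 0.362 for SNRPF and −0.324 for SNRPA1, kept in 4 each, and 0.338 for SF3B2 and 0.348 for PRPF8, kept in 3 each. K562 DMSO replicate 3 enters every one of these differences; without it, LSM5 had 0.621, LSM2 0.611 and SNRPC 0.778.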

How the results depend on the processing

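With library totals in place of TMM, HCT116 DNMT1i had 6 higher and 14 lower genes, HaloPROTAC3 0 higher and 7 lower in DMSO and 2 higher and 19 lower in DNMT1i, and the difference between lines was called negative in 3 genes; it had 3 with DESeq2 size factors, 4 with DESeq2, and 0 without the low count filter and with the replicate block. Without that filter 1 gene was lower in K562 DNMT1i, 1 higher in speckle dTAG-13, and 2 and 3 lower with HaloPROTAC3 in DMSO and in DNMT1i; 1 fit of all 30 libraries gave 1 lower gene in K562. The replicate block gave 1 higher and 4 lower genes and 7 bins in speckle cells (limma voom 1 bin). For HaloPROTAC3 in DMSO, where pairing was not inferred, it gave 0 higher and 2 lower genes (over all groups 14 of 45 correlations were over 0.1). The cause was not tested. Leaving out each library in turn gave 0 to 10 higher and 0 to 3 lower genes in K562 DNMT1i (both highest without K562 DMSO replicate 3), 2 higher and 17 to 24 lower in HCT116 DNMT1i, 0 to 1 lower in speckle cells, 0 to 1 lower for HT-CTCF DNMT1i alone, 0 to 1 higher and 0 to 3 lower with HaloPROTAC3, 0 to 1 higher and 2 to 5 lower for HaloPROTAC3 in DMSO, 2 to 5 higher and 2 to 9 lower in DNMT1i, 26 to 29 higher and 4 to 8 lower between the lines, 9 to 21 differences called positive and 0 to 2 called negative, and 1 to 10 bins in HCT116 and 0 to 1 in speckle cells. Among the members named by the rule given above and the called bins, no called value turned its sign under these alternatives. HT-CTCF libraries, the shallowest, limit what those comparisons can detect.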
